A study of Mus musculus with 7 samples.

Results

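Interferon-stimulated genes are the genes that a cell switches on when it senses an interferon, the secreted signal of antiviral and antitumour immunity. A set of 38 such genes was followed by gene symbol, and all 38 were listed in both count tables, among 24394 gene names in the first and 13236 in the second. They comprised transcription factors (Stat2, Irf1, Irf7, Irf9), nucleic acid sensors (Ifih1, Ddx58, Dhx58, Zbp1) and RNA-binding effectors (Ifit1, Ifit2, Ifit3, Eif2ak2, Adar, Parp14). The oligoadenylate synthetase family (Oas1a, Oas2, Oas3, Oasl1, Oasl2), the antiviral GTPases (Mx1, Mx2, Gbp2, Gbp3, Gbp7) and the ISG15 system (Isg15, Usp18, Trim25) followed. The last groups were membrane proteins (Bst2, Ifitm1, Ifitm3, Ifi27) and other effectors (Rsad2, Cmpk2, Isg20, Ifi35, Ifi44, Rtp4, Xaf1).

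The study profiled non-immune cells of breast tumours in mice by sequencing the 3' ends of mRNA, with 1 library for each of 7 sorted groups. All mice were BALB/c females. NMF was the Ter119- CD45- EpCAM- stroma of normal mammary fat pad from mice 8 weeks old that had received no injection. The first table set it beside 2 libraries of cancer-associated fibroblasts, both Ter119- CD45- EpCAM- and sorted as PDPN+ (pCAF) or PDPN- (sCAF), where PDPN is the fibroblast surface protein podoplanin. They came from tumours of 4T1-luc cells, a mouse mammary carcinoma line carrying luciferase. In the second table, tumours of 4T1-GFP cells gave 4 Ter119- CD45- groups: GFP- EpCAM- stroma, GFP- EpCAM+ cells, GFP+ EpCAM- carcinoma cells and GFP+ EpCAM+ carcinoma cells. Every tumour-bearing mouse had received 100000 cells in a mammary fat pad and was 12 weeks old, 4 weeks after injection. No source used here says whether a library pooled several mice.

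Type I interferons bind a receptor made of IFNAR1 and IFNAR2, whose kinases activate transcription factors, STAT2 among them. A complex that holds STAT2 and IRF9 binds a promoter element, the interferon-stimulated response element, in front of most genes of the set. Interferon gamma, made by T and natural killer cells, signals through another receptor, acts at the gamma-activated site and induces Irf1 and several Gbp genes. Carcinoma cells, fibroblasts, endothelial cells and leukocytes can all respond, so the set can be active in any sorted fraction of a tumour.

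The promoter windows of 6 members are shown because these genes carry the results that follow: Irf1, Gbp2, Isg15 and Irf7 had the largest summed counts among the members whose level differed in some comparison and for which a window was at hand. Ifitm1 and Ifitm3 are neighbouring genes that behaved differently and were added after their values had been seen. Each window runs from 250 bases before to 50 bases after a transcription start in RefSeq (GRCm38.p6), is written 5' to 3' on the gene's own strand, and has matches to the 2 motifs described next in capitals.
Irf1, chr11:53769764-53770063, + strand: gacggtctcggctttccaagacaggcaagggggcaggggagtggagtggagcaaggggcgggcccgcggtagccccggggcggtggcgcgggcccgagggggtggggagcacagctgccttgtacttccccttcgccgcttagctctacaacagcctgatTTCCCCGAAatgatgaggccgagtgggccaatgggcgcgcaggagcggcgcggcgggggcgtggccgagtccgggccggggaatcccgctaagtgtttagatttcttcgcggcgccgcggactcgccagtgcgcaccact
Gbp2, chr3:142620413-142620712, + strand: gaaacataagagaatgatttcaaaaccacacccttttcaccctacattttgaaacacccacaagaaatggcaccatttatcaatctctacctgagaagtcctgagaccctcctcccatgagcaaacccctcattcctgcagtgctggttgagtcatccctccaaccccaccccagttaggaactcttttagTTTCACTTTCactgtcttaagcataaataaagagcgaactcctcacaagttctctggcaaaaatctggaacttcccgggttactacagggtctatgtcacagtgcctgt
Isg15, chr4:156200769-156201068, - strand: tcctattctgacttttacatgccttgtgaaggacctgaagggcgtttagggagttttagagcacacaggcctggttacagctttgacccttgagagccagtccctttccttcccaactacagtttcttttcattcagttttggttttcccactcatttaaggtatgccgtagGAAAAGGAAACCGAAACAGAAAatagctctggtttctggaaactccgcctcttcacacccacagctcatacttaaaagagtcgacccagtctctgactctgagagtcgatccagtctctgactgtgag
Irf7, chr7:141266375-141266674, - strand: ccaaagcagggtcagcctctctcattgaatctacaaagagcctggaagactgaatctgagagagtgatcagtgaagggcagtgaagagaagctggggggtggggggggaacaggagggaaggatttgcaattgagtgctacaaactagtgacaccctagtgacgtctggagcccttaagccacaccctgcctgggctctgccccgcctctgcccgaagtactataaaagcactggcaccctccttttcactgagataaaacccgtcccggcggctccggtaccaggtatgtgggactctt
Ifitm1, chr7:140967826-140968125, + strand: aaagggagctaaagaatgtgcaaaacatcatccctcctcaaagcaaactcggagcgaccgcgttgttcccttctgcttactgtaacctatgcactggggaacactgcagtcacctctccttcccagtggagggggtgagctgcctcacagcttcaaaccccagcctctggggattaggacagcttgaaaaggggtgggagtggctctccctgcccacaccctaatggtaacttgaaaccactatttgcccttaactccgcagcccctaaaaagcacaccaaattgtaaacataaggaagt
Ifitm3, chr7:141010695-141010994, - strand: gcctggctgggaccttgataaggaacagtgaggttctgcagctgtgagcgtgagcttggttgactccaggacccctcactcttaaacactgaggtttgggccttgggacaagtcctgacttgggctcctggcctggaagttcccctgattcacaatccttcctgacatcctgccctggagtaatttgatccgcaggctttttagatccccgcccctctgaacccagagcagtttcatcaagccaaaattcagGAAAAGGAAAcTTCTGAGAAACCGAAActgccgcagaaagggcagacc

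The letters searched on both strands were GAAANNGAAA, whose reverse is TTTCNNTTTC, for the core of the interferon-stimulated response element and TTCNNNGAA for the core of the gamma-activated site. The Isg15 window held 3 overlapping copies of the response element letters, starting 78, 72 and 66 bases before the start. The Gbp2 window held the single match TTTCACTTTC, 59 bases before the start, and the Irf1 window the gamma-activated site letters TTCCCCGAA, 90 bases before it. RefSeq gives Irf1 a second window, chr11:53770223-53770522, which is not printed and held neither motif. In the Ifitm3 window, 2 response element matches began at transcribed bases 3 and 20 and a gamma-activated site match, TTCTGAGAA, began between them at base 14 and overlapped the second. Neither motif was found in the windows of Irf7 and Ifitm1, which says only that these letters are not in these stretches, and the RefSeq start of Ifitm1 lies inside the gene as GENCODE annotates it.

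RefSeq windows were matched for 29 of the 38 members. Windows for Parp14, Mx1, Mx2, Rtp4, Zbp1, Ifi27, Oas2, Usp18 and Dhx58 were not used here. The response element letters stood in the windows of 15 of the 29 matched members (51.7%), which is 40.5% of their 37 windows against 3.44% of all 32851 windows in the table. The gamma-activated site letters were found for 10 of 29 members (34.5%), in 27.0% of their windows against 8.30% of all windows. In all, 20 members held either motif, 5 held both and 9 held neither. A match is a description of letters and was not related to any level measured here: of members called in at least 1 comparison, 5 of the 14 with a window held the response element letters, and of members never called, 10 of 15.

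Several members sit in gene clusters whose copies resemble each other, and the sources do not say how the authors counted reads shared by such copies. By the GENCODE annotation of GRCm38 (the build called mm10 in the submitters' processing notes), the 3 Ifit members lie on chromosome 19, the 5 oligoadenylate synthetase members on chromosome 5, the Gbp members on chromosome 3 and the Mx members on chromosome 16. Ifitm1 spans chr7:140967221-140969825 on the + strand and Ifitm3 chr7:141009586-141010770 on the - strand. Values of these families, above all Ifit3, Oas1a, the Gbp genes and the Ifitm genes, are uncertain to the extent that copies shared reads. Of the 38 members, 14 overlap a second annotated gene, 11 of them on the opposite strand (Irf1, Irf7, Adar and Gbp2 among them), and strand handling is not given either. Mx2 is annotated as a polymorphic pseudogene, and many inbred laboratory strains, BALB/c among them, carry a defective Mx1.

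The libraries held 436051 counts (pCAF) to 2590144 counts (sCAF) in the first table and 1338608 to 2384264 in the second. A count of 0, taken as up to 3 counts, allowed up to 7.48 normalised CPM (counts scaled to a common library size) in pCAF and 1.13 to 2.44 in the other libraries. The library labelled sCAF went against its label: its 8 fibroblast markers summed to 229 CPM, against 61790 in pCAF and 37168 in NMF, and its 8 epithelial markers to 4562 CPM, against 105 and 81.2. GFP- EpCAM- held counts of several cell types' markers, and the largest sum was that of 8 endothelial markers, at 9252 CPM. Its 8 fibroblast markers summed to 4099 CPM, 8 epithelial markers to 1144 and 8 macrophage markers to 663. Ptprc, which encodes CD45, had 29 counts. In the other 3 libraries of the second table the same 8 endothelial markers summed to 36.7 to 192 CPM, the macrophage markers to 7.69 to 205 CPM, and Ptprc had 0 or 1 counts. Fat pad and tumours were digested with different enzymes, so tissue, age and digestion cannot be told apart in any comparison with NMF.

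All 38 members together took 0.487% of the counts in NMF (exact 95% interval 0.474% to 0.499%), 0.500% in pCAF (0.479% to 0.521%) and 0.428% in sCAF (0.420% to 0.436%). The first pair of intervals overlapped, and sCAF lay below both. In the second table the sum was 0.828% in GFP- EpCAM- (0.813% to 0.843%), 0.725% in GFP- EpCAM+ (0.712% to 0.737%), 0.736% in GFP+ EpCAM- (0.724% to 0.748%) and 0.916% in GFP+ EpCAM+ (0.904% to 0.928%). GFP+ EpCAM+ gave the highest sum of its table, and the intervals of GFP- EpCAM+ and GFP+ EpCAM- overlapped. Ifitm3 alone held 17.3% to 43.8% of the summed counts, and without it the sums were 0.333%, 0.281% and 0.307% in NMF, pCAF and sCAF. The order of the second table without Ifitm3 was 0.577% in GFP- EpCAM-, 0.580% in GFP+ EpCAM-, 0.599% in GFP- EpCAM+ and 0.745% in GFP+ EpCAM+. All these shares are percentages of raw counts, and some orders changed with scaling. Without Ifitm3, normalised CPM was lowest in GFP+ EpCAM- (5522), then GFP- EpCAM- (5998), GFP- EpCAM+ (6296) and GFP+ EpCAM+ (7153). In the first table sCAF (2997) then lay below pCAF (3051). For all 38 members, scaling put pCAF (5432 CPM) above NMF (4587), and GFP- EpCAM+ (7614) above GFP+ EpCAM- (7011). The scaled sums carry no interval here. These tables were made and scaled separately, so a level in one is not to be read against the other. In sorted bulk cells, fewer cells of a type and less RNA per cell cannot be told apart.

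**Figure D1:**
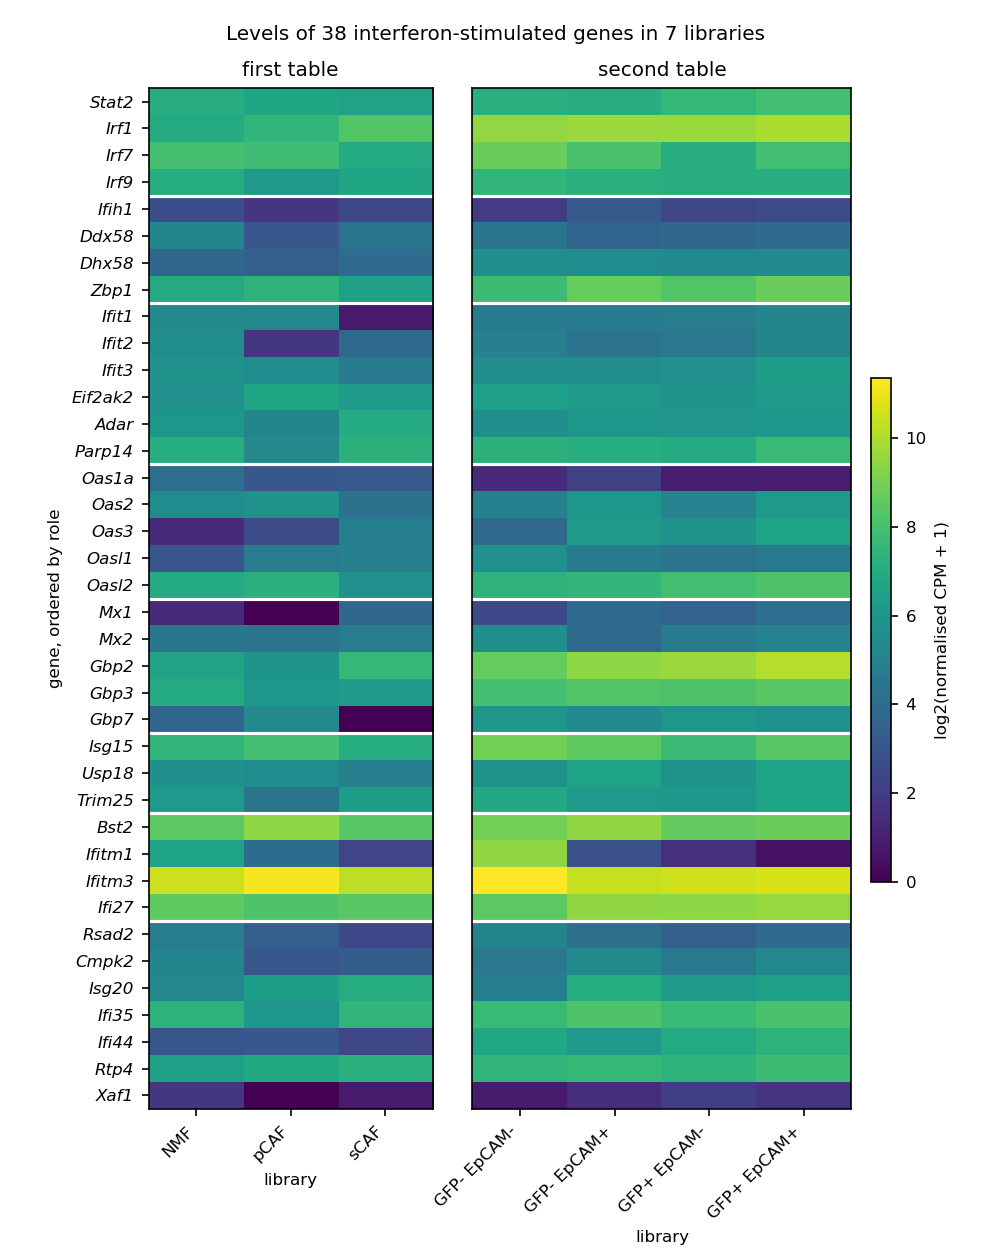
Level of each member in each library, as colour on a log2(normalised CPM + 1) scale, with genes as rows in role order (white lines part the roles) and the 3 libraries of the first table and 4 of the second as columns. Ifitm1 runs from 709 CPM in GFP- EpCAM- to 0.403 in GFP+ EpCAM+, while Ifitm3 stays at 1179 CPM or more in every library.

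Each comparison was made between 2 libraries of the same table as a ratio of scaled counts with an exact 95% interval, which covers counting error only, for members with at least 20 counts in the pair. Higher and lower calls required every value of that interval to lie beyond 2-fold. With 1 library a group there was no replicate check and no test across samples, and reads without collapsed molecular identifiers are not independent molecules. Members were called in 5 of the 7 comparisons, and in neither of those made with the GFP+ EpCAM+ library. The 2 comparisons with NMF share that library, and the comparisons with GFP- EpCAM- share that one, so their values are given side by side.

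Against normal fat pad stroma, few interferon-stimulated genes were called in PDPN+ fibroblasts, the library with the fewest counts. Of 33 members passing the count filter, 0 were higher, where 7.58% of all 8129 genes were. Lower calls went to 2 (Ifit2 and Ifitm1), or 6.06%, near the 7.91% of all genes. The median log2 ratio was -0.31 over these members and -0.20 over all genes. Xaf1, Oas3, Mx1, Ifi44 and Ifih1 did not reach 20 counts in that pair. With libraries scaled by total counts the median of all genes moved to -0.41, all-gene calls stood at 6.14% higher and 10.3% lower, and Parp14 was also called lower.

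Members were called in both directions in the library labelled sCAF against normal stroma, at shares near those of all genes. Of 35 members passing, 5 were higher (Oas3, Isg20, Irf1, Oasl1 and Mx1), against 15.9% of all 9815 genes, and 5 were lower (Ifit1, Ifitm1, Rsad2, Cmpk2 and Ifit2), against 17.3% of all genes. Each side came to 14.3% of the members, and the members' median log2 ratio was -0.33 where that of all genes was 0.17. The direct comparison of both tumour libraries found 0 of 31 members higher in pCAF, against 11.5% of 8915 genes. Another 4 were lower (Parp14, Gbp2, Adar and Trim25), against 11.2%, with medians of -0.27 for members and -0.44 for all genes. The balance of directions turned under some alternatives: DESeq2 size factors gave 2 members higher and 1 lower, and thinned libraries gave 4 higher and 1 lower of 25 passing. Thinned libraries also left 1 member higher and 1 lower in sCAF over NMF.

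**Figure D2:**
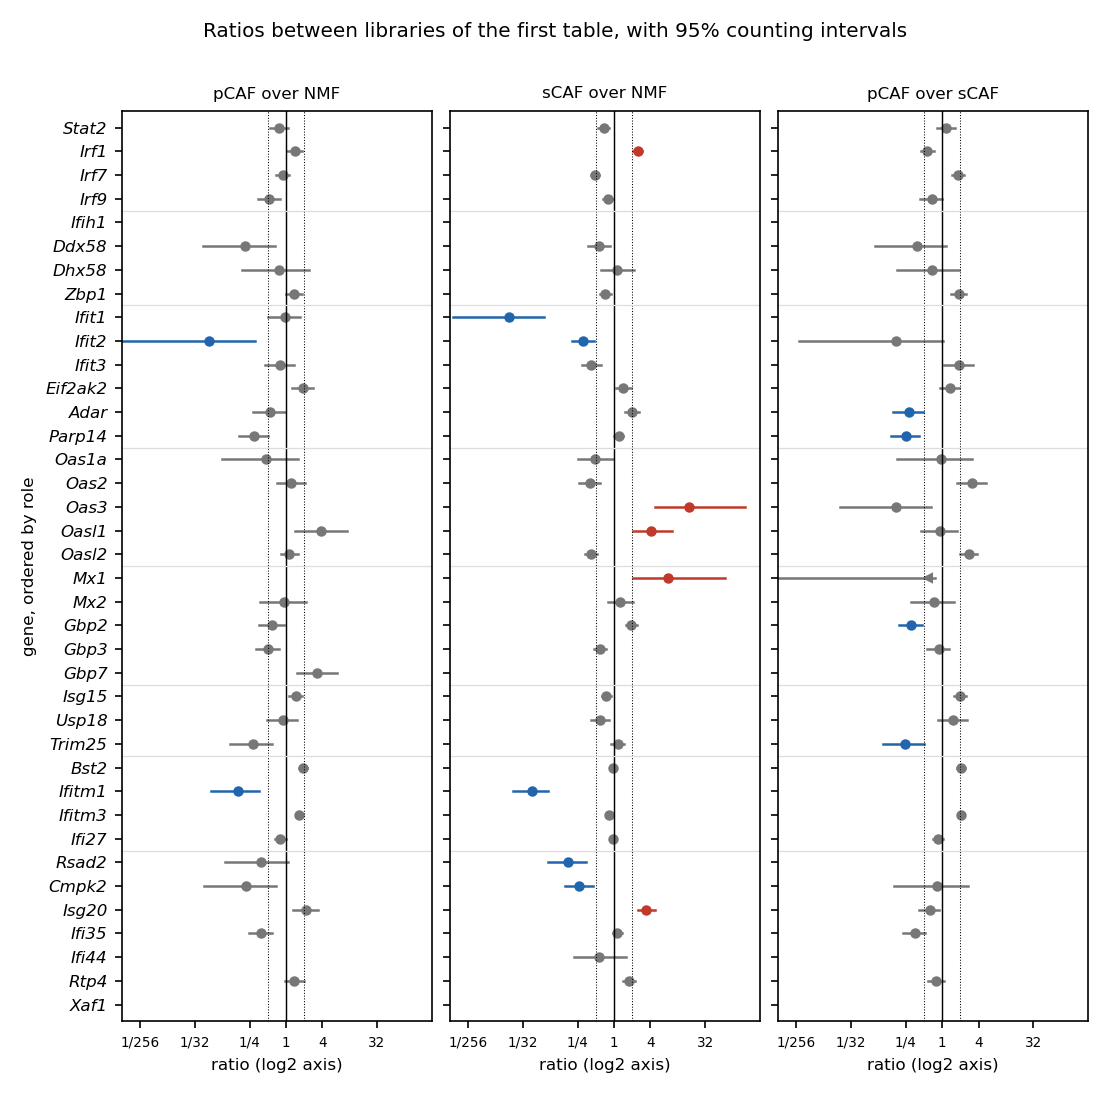
Ratio of each member between libraries of the first table on a log2 axis, with genes in role order, bars for the 95% counting interval, and dotted lines at 2-fold. Points in red were called higher and points in blue lower: 0 and 2 in pCAF over NMF, 5 and 5 in sCAF over NMF, 0 and 4 in pCAF over sCAF. A triangle marks a bound where 1 library held 0 counts, bars that pass the axis limits are clipped, and genes under 20 counts have no point.

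Within the GFP- tumour-resident cells, EpCAM+ cells differed from EpCAM- stroma in 4 of 35 members passing. Isg20 and Oas3 were higher, against 7.33% of 9518 genes, and Ifitm1 and Mx2 were lower, against 12.7%. In EpCAM- cells, GFP+ carcinoma cells differed from GFP- stroma in another 4 of 35: Oas3 was higher, against 5.55% of 9551 genes, and Ifitm1, Irf7 and Isg15 were lower, against 14.1%. The members' median log2 ratios were -0.05 and 0.00, with 0.03 over all genes in both comparisons.

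The GFP+ EpCAM+ library gave no call in either of its comparisons, each with 35 members passing. Against GFP+ EpCAM-, 0 members were higher where 0.736% of 9100 genes were, and 0 lower where 0.396% were. Against GFP- EpCAM+, 0 were higher where 0.216% of 9241 genes were, and 0 lower where 4.18% were. These comparisons are described further under the EpCAM split of carcinoma cells. Over the 7 comparisons, 37 members passed the filter at least once and 17 of them (45.9%) were called at least once, close to the 47.3% of all 11029 genes that passed at least once.

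**Figure D3:**
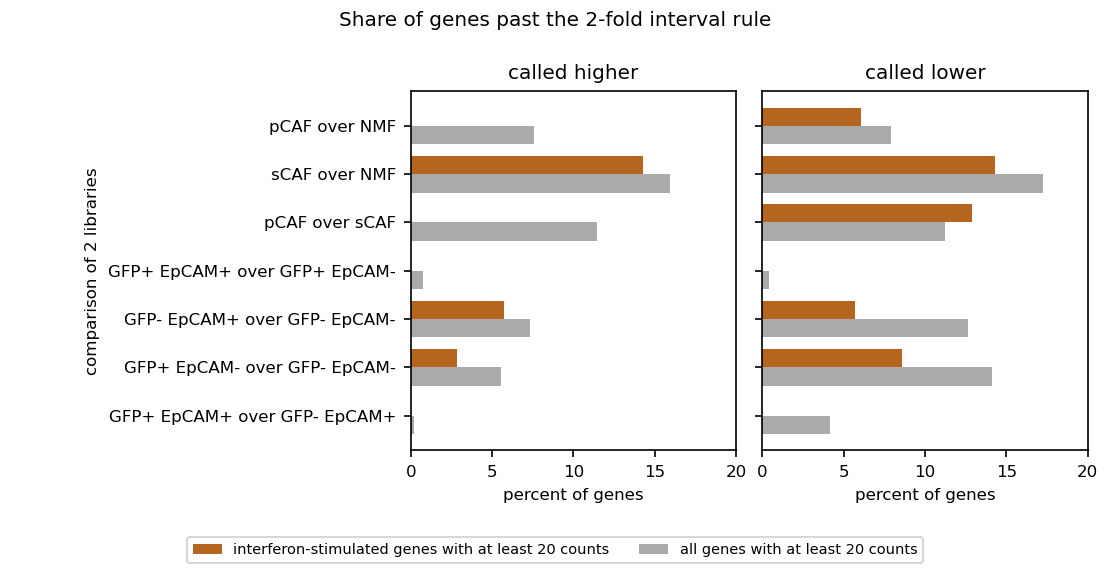
Percent of genes called higher (left) and lower (right) in each comparison of 2 libraries, for members with at least 20 counts (brown) and for all genes with at least 20 counts (grey). The members' share passes that of all genes only among lower calls of pCAF over sCAF, 4 of 31 members beside 11.2% of all genes.

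Among the transcription factors, Irf1 was the only one called higher in any comparison. Irf1, an early target of interferon gamma that also acts on response element letters, had 156 counts in NMF, 71 in pCAF and 823 in sCAF, or 127, 177 and 310 CPM. The sCAF library was thus the highest, 2.45-fold above NMF (95% interval 2.06 to 2.92), and that call was lost with DESeq2 size factors, total-count scaling and thinning. In the second table Irf1 had 945 counts in GFP- EpCAM-, 1308 in GFP- EpCAM+, 1679 in GFP+ EpCAM- and 2474 in GFP+ EpCAM+, or 734, 800, 807 and 997 CPM. These levels lay close together, and the ratios of GFP- EpCAM+ and GFP+ EpCAM- to GFP- EpCAM- were 1.09 (1.00 to 1.19) and 1.10 (1.01 to 1.19).

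Irf7, which drives type I interferon genes and amplifies the response, had 253 CPM in NMF (312 counts), 224 in pCAF (90 counts) and 122 in sCAF (323 counts), and no call was made there. Its second-table values were 557 counts in GFP- EpCAM-, 444 in GFP- EpCAM+, 280 in GFP+ EpCAM- and 604 in GFP+ EpCAM+, or 433, 272, 135 and 243 CPM. The stroma was highest and the EpCAM- carcinoma cells lowest, at 0.311 of the stromal level (0.268 to 0.360), or 3.22-fold lower. Markers of several cell types fell in the same comparison: all 8 of 8 endothelial, all 8 of 8 macrophage and all 4 leukocyte markers listed were lower in GFP+ EpCAM-, where Ptprc and Adgre1 were at 0 counts. Of 6 fibroblast markers passing, 5 were lower and Pdgfra was higher, and 2 of 2 T and natural killer cell markers passing were lower. Endothelial and leukocyte markers, and 4 of 8 macrophage markers, were also lower in GFP- EpCAM+ than in the stroma. Irf7 was lower there too, at 0.628 of the stroma (0.553 to 0.712), short of a call. The part of these cells in the Irf7 result was not tested. Stat2 ranged from 90.8 to 136 CPM in the first table and from 133 to 247 in the second, Irf9 from 69.8 to 132 and from 137 to 179, and neither of these interferon complex components was called in any comparison.

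The nucleic acid sensors gave no call in any comparison. Zbp1, a sensor of left-handed nucleic acids that can trigger necroptosis, had 150 counts in NMF, 66 in pCAF and 233 in sCAF, or 122, 165 and 87.8 CPM. Among the GFP and EpCAM sorts it had 284, 667, 634 and 1062 counts in GFP- EpCAM-, GFP- EpCAM+, GFP+ EpCAM- and GFP+ EpCAM+, or 221, 408, 305 and 428 CPM, so the stroma was lowest. The RNA helicases were sparse: Ddx58 (RIG-I) had 3 counts in pCAF, 52 in sCAF and 43 in NMF, and at most 36 in the second table. Dhx58 (LGP2) ranged from 9.97 to 14.7 CPM in the first table and from 41.8 to 48.9 in the second. Ifih1 (MDA5) ranged from 2.49 to 5.68 CPM and from 3.11 to 7.96, and reached 20 counts only in both comparisons of GFP+ EpCAM+.

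The Ifit genes, whose proteins bind foreign RNA, were lowest in tumour libraries of the first table, and not the same genes in both. Ifit1 had 51 counts in NMF, 16 in pCAF and 2 in sCAF, or 41.4, 39.9 and 0.754 CPM. The ratio of pCAF to NMF was 0.963 (0.513 to 1.72), while sCAF stood at 0.0182 of NMF (0.00215 to 0.0692). Ifit2 had 57 counts in NMF, 1 in pCAF and 38 in sCAF, or 46.3, 2.49 and 14.3 CPM. Both tumour libraries were below NMF, pCAF at 0.0539 (0.00134 to 0.312) and sCAF at 0.309 (0.200 to 0.475). With thinned libraries both calls of sCAF over NMF were lost: Ifit1 fell under 20 counts in the pair, at 18, and Ifit2 stood at 0.250 (0.0828 to 0.635). Ifit3 had 69, 18 and 63 counts in NMF, pCAF and sCAF, or 56.0, 44.9 and 23.7 CPM, with no call. None of the 3 was called in the second table, and the highest level of each, 35.5, 35.5 and 78.6 CPM, was in GFP+ EpCAM+.

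Of the other RNA-binding effectors, Parp14, an ADP-ribosyltransferase, had 16 counts in pCAF, 420 in sCAF and 164 in NMF, or 39.9, 158 and 133 CPM. Adar, which edits double-stranded RNA, had 14, 331 and 78 counts, or 34.9, 125 and 63.3 CPM in the same order. For both genes pCAF was lowest: Parp14 stood at 0.252 of sCAF (0.143 to 0.414) and Adar at 0.280 (0.151 to 0.476). The Adar call was lost with DESeq2 size factors and with thinned libraries, while the Parp14 call was kept in both. Eif2ak2, the RNA-activated kinase PKR, ranged from 52.8 to 99.7 CPM and from 57.7 to 83.1 CPM and was not called.

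Oas3, which makes the oligoadenylates that activate RNase L, was called higher in 3 comparisons. It had 2 counts in NMF, 2 in pCAF and 76 in sCAF, or 1.62, 4.99 and 28.6 CPM. The sCAF library was 17.6-fold above NMF (4.72 to 148), and with thinned libraries the ratio was 8.24 (1.97 to 73.2) and the call was lost. Among the GFP and EpCAM sorts, Oas3 had 18 counts in GFP- EpCAM-, 113 in GFP- EpCAM+, 117 in GFP+ EpCAM- and 233 in GFP+ EpCAM+, or 14.0, 69.2, 56.2 and 93.9 CPM. The stroma was lowest, with GFP- EpCAM+ 4.94-fold (2.99 to 8.64) and GFP+ EpCAM- 4.02-fold (2.44 to 7.02) above it. Oas3 and the epithelial marker sum were both lowest in NMF and in GFP- EpCAM- of their tables. The epithelial sums were 81.2 CPM in NMF, 105 in pCAF and 4562 in sCAF. They were 1144 CPM in GFP- EpCAM-, and 10826, 3520 and 6801 in GFP- EpCAM+, GFP+ EpCAM- and GFP+ EpCAM+. The highest libraries of the second table differed: Oas3 was highest in GFP+ EpCAM+ and the epithelial sum in GFP- EpCAM+. The part of epithelial or carcinoma cells in the Oas3 result was not tested.

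The rest of the family had smaller ratios or was sparse. Oasl1, which in mouse represses translation of Irf7, had 9 counts in NMF, 11 in pCAF and 79 in sCAF, or 7.31, 27.4 and 29.8 CPM. Only sCAF was called, 4.07-fold above NMF (2.04 to 9.24), and with DESeq2 size factors, total-count scaling or thinning that call was lost. Oasl1 was highest in the stroma of the second table, at 52.8 CPM, against 19.7 to 25.7 in the other libraries, with no call. Oas2 ranged from 17.7 to 54.8 and from 31.1 to 67.3 CPM, and Oasl2 from 52.4 to 145 and from 166 to 290 CPM. Oas1a had 20 counts in NMF, 3 in pCAF and 21 in sCAF and never more than 6 in a library of the second table, where it did not pass the count filter.

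Among the GTPases, Gbp2, Mx1 and Mx2 were each called in 1 comparison. Gbp2, a guanylate-binding protein that attacks pathogen vacuoles and is induced by interferon gamma, had 119 counts in NMF, 23 in pCAF and 497 in sCAF, or 96.6, 57.3 and 187 CPM. The pCAF library was lowest, at 0.306 of sCAF (0.192 to 0.465), a call lost with DESeq2 size factors and with thinning. Across the second table Gbp2 had 527 counts in GFP- EpCAM-, 1107 in GFP- EpCAM+, 1683 in GFP+ EpCAM- and 2723 in GFP+ EpCAM+, or 409, 677, 809 and 1097 CPM. The stroma was lowest and GFP+ EpCAM+ highest, and none of the 4 comparisons made gave a call: GFP+ EpCAM- was 1.98-fold above the stroma (1.79 to 2.18), and GFP- EpCAM+ was 1.65-fold above it (1.49 to 1.84).

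Mx1 had 2 counts in NMF, 0 in pCAF and 34 in sCAF, and sCAF was 7.89-fold above NMF (2.02 to 67.8), close to the threshold. With DESeq2 size factors, total-count scaling or thinning Mx1 was not called. It had 6, 24, 23 and 41 counts in GFP- EpCAM-, GFP- EpCAM+, GFP+ EpCAM- and GFP+ EpCAM+, with no call. Mx2 had 8 counts in pCAF, 71 in sCAF and 26 in NMF, at 19.9 to 26.8 CPM, and no call. Across the second table it had 63, 23, 50 and 79 counts, or 48.9, 14.1, 24.0 and 31.8 CPM, and GFP- EpCAM+ was at 0.288 of the stroma (0.170 to 0.470). Gbp3 was not called, at 64.8 to 127 and 252 to 346 CPM. Gbp7 had 15 counts in NMF, 16 in pCAF and 0 in sCAF, too few to pass the filter with sCAF, and 70 to 141 counts in the second table.

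Isg15, a ubiquitin-like protein attached to newly made proteins and also secreted, had 212 counts in NMF, 100 in pCAF and 340 in sCAF, or 172, 249 and 128 CPM, with no call. The GFP and EpCAM sorts gave 624 counts in GFP- EpCAM-, 610 in GFP- EpCAM+, 441 in GFP+ EpCAM- and 833 in GFP+ EpCAM+, or 485, 373, 212 and 336 CPM. As with Irf7, the stroma was highest and the EpCAM- carcinoma cells lowest, at 0.437 of the stroma (0.386 to 0.495), or 2.29-fold lower. With total-count scaling Isg15 was not called there. The cell markers given for Irf7 belong to this same comparison, and their part in the Isg15 result was not tested. In GFP- EpCAM+, Isg15 was at 0.770 of the stroma (0.688 to 0.862), lower but, like Irf7 there, short of a call. Usp18, which removes ISG15 and dampens receptor signalling, ranged from 29.8 to 51.1 and from 53.8 to 96.1 CPM without a call. Trim25, a ubiquitin ligase that acts on RIG-I, had 87 counts in NMF, 8 in pCAF and 214 in sCAF. Its pCAF level was 0.247 of sCAF (0.105 to 0.496), a call lost with DESeq2 size factors and with thinning.

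The membrane protein Ifitm1 showed the widest range of the set. This restrictor of virus entry had 116 counts in NMF, 6 in pCAF and 11 in sCAF, or 94.2, 15.0 and 4.14 CPM. Both tumour libraries were below NMF, pCAF at 0.159 (0.0571 to 0.356), or 6.30-fold lower, and sCAF at 0.0440 (0.0214 to 0.0817), or 22.7-fold lower. The second table gave it 913 counts in GFP- EpCAM-, 10 in GFP- EpCAM+, 4 in GFP+ EpCAM- and 1 in GFP+ EpCAM+, or 709, 6.12, 1.92 and 0.403 CPM. GFP- EpCAM- stood alone: GFP- EpCAM+ was at 0.00863 of it (0.00412 to 0.0159) and GFP+ EpCAM- at 0.00271 (0.000737 to 0.00696), or 369-fold lower (144 to 1357).

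Endothelial markers moved in the same comparisons. The 8 markers (Pecam1, Cdh5, Kdr, Tie1, Egfl7, Plvap, Esam and Gpihbp1) summed to 2927 CPM in NMF, 49.9 in pCAF and 513 in sCAF, and to 9252, 192, 77.9 and 36.7 CPM in GFP- EpCAM-, GFP- EpCAM+, GFP+ EpCAM- and GFP+ EpCAM+. All 8 of 8 were lower in each of the 4 comparisons in which Ifitm1 was lower, and Pecam1 and Cdh5 were at 0 counts in pCAF. In the first table the endothelial sum was lower in pCAF than in sCAF. The Ifitm1 levels had the opposite order, 15.0 CPM in pCAF (6 counts) and 4.14 in sCAF (11 counts). No ratio was assessed for them, because these counts fell short of the 20 needed in a pair. Markers of other cells fell in some of the 4 comparisons too. All 8 fibroblast markers were lower in sCAF over NMF, while in pCAF over NMF 2 were higher and 1 lower. In GFP- EpCAM+ against the stroma, leukocyte, fibroblast and T and natural killer cell markers passing were all lower, as were 4 of 8 macrophage markers. The same lists for GFP+ EpCAM- are given with Irf7. The part of endothelial or other cells in the Ifitm1 result was not tested.

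Ifitm3, the neighbour of Ifitm1 on chromosome 7 and also a restrictor of virus entry, did not share this pattern. It had 1779 counts in NMF, 955 in pCAF and 3129 in sCAF, or 1444, 2381 and 1179 CPM, and the ratios to NMF were 1.65 (1.52 to 1.78) for pCAF and 0.816 (0.770 to 0.866) for sCAF. The second table gave 3363, 2154, 3099 and 4087 counts in GFP- EpCAM-, GFP- EpCAM+, GFP+ EpCAM- and GFP+ EpCAM+, or 2613, 1318, 1489 and 1647 CPM. The stroma was highest, with GFP- EpCAM+ at 0.504 of it (0.478 to 0.533) and GFP+ EpCAM- at 0.570 (0.543 to 0.599), both short of a call. The ratio of pCAF to sCAF, 2.02 (1.88 to 2.17), straddled the threshold, and it was called with DESeq2 size factors, at 2.24, and with thinned libraries, at 2.53.

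**Figure D4:**
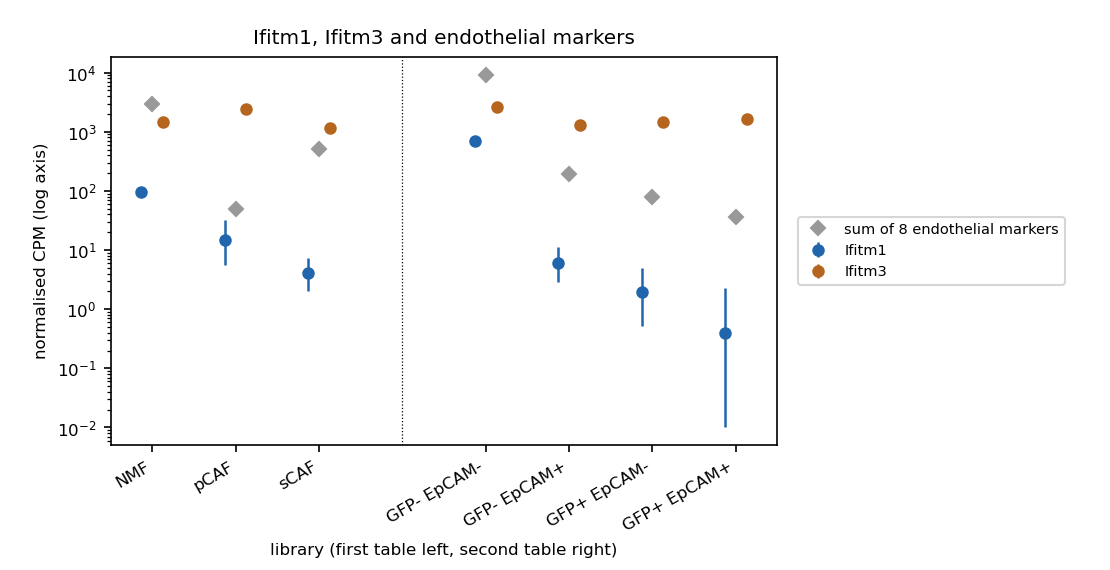
Normalised CPM on a log axis in each of the 7 libraries for Ifitm1 (blue), Ifitm3 (brown) and the sum of 8 endothelial markers (grey), with bars for the exact 95% Poisson interval of the count. Ifitm1 spans 709 to 0.403 CPM in the second table and Ifitm3 2613 to 1318 CPM.

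Bst2 (tetherin, which holds budding virus at the membrane) had 440 counts in NMF, 277 in pCAF and 895 in sCAF, or 357, 691 and 337 CPM. The pCAF library was highest, 1.93-fold above NMF (1.66 to 2.25) and 2.05-fold above sCAF (1.78 to 2.35), with no call. With thinned libraries the ratio to sCAF was 2.48 (2.02 to 3.04) and Bst2 was called higher. Its second-table levels were 482, 711, 400 and 439 CPM in GFP- EpCAM-, GFP- EpCAM+, GFP+ EpCAM- and GFP+ EpCAM+, with GFP- EpCAM+ highest. Ifi27 had 461 counts in NMF, 121 in pCAF and 937 in sCAF, or 374, 302 and 353 CPM, and these ratios to NMF were 0.806 (0.654 to 0.987) and 0.943 (0.843 to 1.06). Across the second table Ifi27 had 363 CPM in the stroma and 677 to 765 in the other libraries, again with no call.

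Rsad2 and Cmpk2, neighbours in the genome, were both lower in sCAF. Rsad2 (viperin, which makes a chain-terminating nucleotide) had 32 counts in NMF, 4 in pCAF and 12 in sCAF, or 26.0, 9.97 and 4.52 CPM, and sCAF was at 0.174 of NMF (0.0816 to 0.347). Cmpk2, a nucleotide kinase, had 42, 3 and 24 counts in the same order, or 34.1, 7.48 and 9.04 CPM, and sCAF was at 0.265 of NMF (0.154 to 0.448). In both genes NMF was highest, and pCAF, at 0.384 of NMF for Rsad2 (0.0986 to 1.08) and 0.219 for Cmpk2 (0.0435 to 0.686), was not called. With thinned libraries both calls of sCAF over NMF were lost, since the pair then held 12 counts of Rsad2 and 18 of Cmpk2, under the filter. Across the second table Rsad2 ranged from 10.1 CPM in GFP+ EpCAM- to 33.4 in the stroma, and Cmpk2 from 21.8 in the stroma to 40.4 in GFP- EpCAM+.

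Isg20, an RNA exonuclease, had 46 counts in NMF, 32 in pCAF and 340 in sCAF, or 37.3, 79.8 and 128 CPM. The sCAF library was 3.43-fold above NMF (2.52 to 4.78), a call kept under each alternative scaling and with thinned libraries. For the GFP and EpCAM sorts the values were 37 counts in GFP- EpCAM-, 210 in GFP- EpCAM+, 142 in GFP+ EpCAM- and 222 in GFP+ EpCAM+, or 28.7, 129, 68.2 and 89.4 CPM. As for Oas3 the stroma was lowest, and GFP- EpCAM+ was 4.47-fold above it (3.14 to 6.52). The epithelial marker sums given for Oas3 were higher in the same libraries, at 4562 CPM in sCAF against 81.2 in NMF and 10826 CPM in GFP- EpCAM+ against 1144 in GFP- EpCAM-, and their part in the Isg20 result was not tested. Ifi35 ranged from 62.3 to 178 and from 204 to 297 CPM, and Rtp4 from 86.9 to 151 and from 162 to 220 CPM, with no call. Ifi44 had 3 to 11 counts in the first table and 112 to 400 in the second, and Xaf1 had at most 7 counts in any library and passed no filter.

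**Figure D5:**
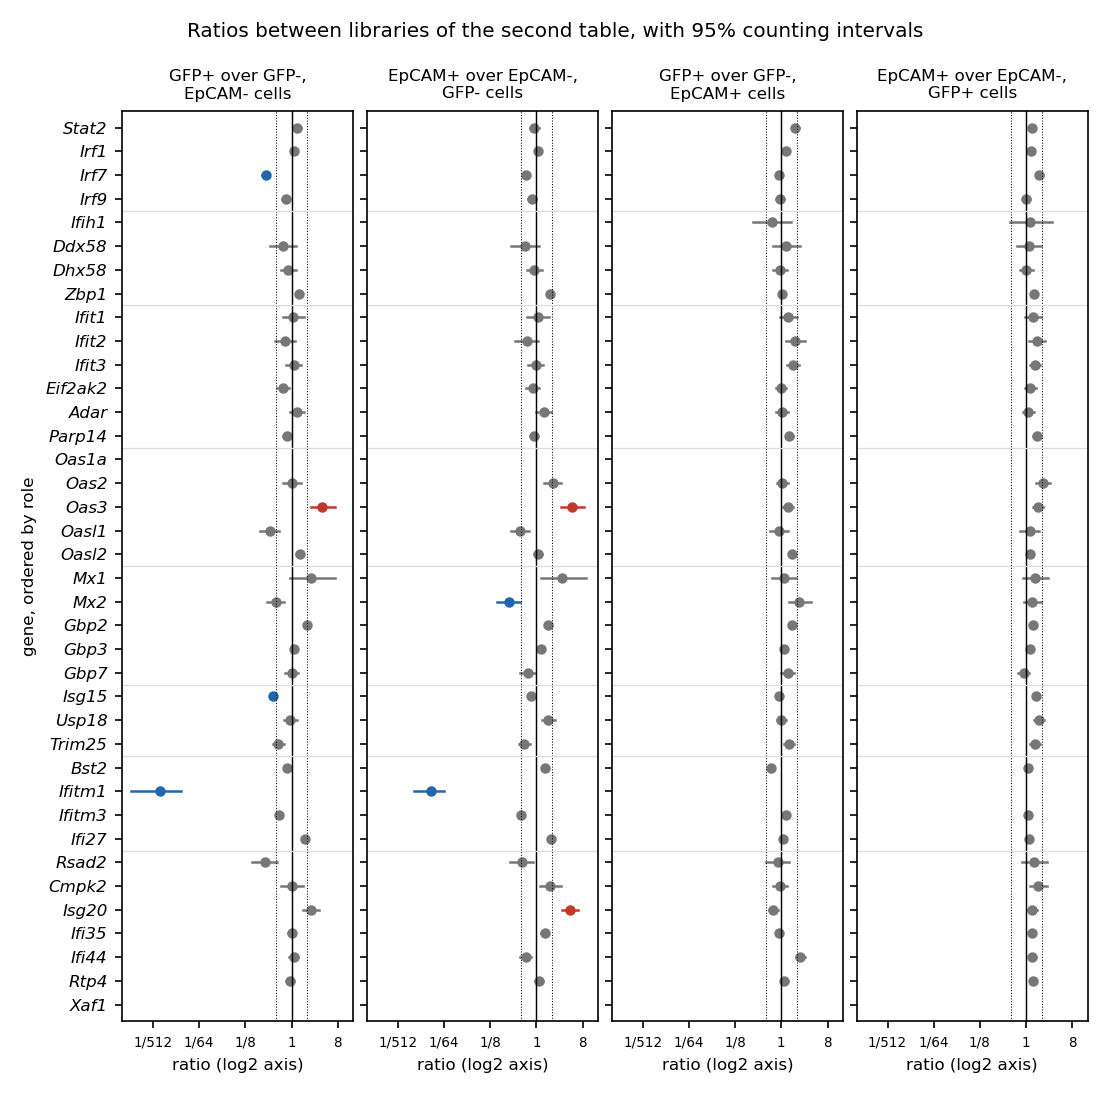
Ratio of each member between libraries of the second table on a log2 axis, with genes in role order, bars for the 95% counting interval and dotted lines at 2-fold. Red points were called higher and blue lower: 1 and 3 for GFP in EpCAM- cells, 2 and 2 for EpCAM in GFP- cells, 0 and 0 for both comparisons of GFP+ EpCAM+. In the last panel 33 of 35 points lie above 1, against 50.6% of all genes.

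The EpCAM split of GFP+ carcinoma cells showed small differences in the same direction across roles. In GFP+ EpCAM+ over GFP+ EpCAM-, 33 of 35 members passing had a ratio above 1, against 50.6% of all genes. Irf9 and Gbp7 were the others, at 0.990 and 0.889. By a rule added after the values had been seen, the whole interval lay above 1 for 23 of 35 members (65.7%), against 14.5% of all genes, and below 1 for 0 members, against 12.9% of all genes. Whether an interval clears 1 depends on the counts, so these shares are not like for like. At least 100 counts were held by 30 of the 35 members, against 5880 of 9100 genes. The members' median log2 ratio was 0.41, where that of all genes was 0.01.

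Their largest ratios were those of Oas2, at 2.12 (1.59 to 2.87, from 66 to 167 counts), and Irf7, at 1.81 (1.57 to 2.09). Usp18 followed at 1.77 (1.41 to 2.24), Cmpk2 at 1.73 (1.21 to 2.52) and Oas3 at 1.67 (1.33 to 2.10). All of these intervals reached below 2-fold, so no member was called. The members with the largest counts had smaller ratios: Ifitm3 stood at 1.11 (1.06 to 1.16), Irf1 at 1.24 (1.16 to 1.32) and Gbp2 at 1.36 (1.28 to 1.44). These genes were singled out for their size or their counts. The direction was alike with each alternative scaling, at 33 of 35 members above 1. These scalings hardly differed for this pair, with all-gene median log2 ratios from -0.0069 to 0.0054, so they are little check of the shift. With libraries thinned to equal depth 30 of 34 members were above 1, against 47.7% of all genes.

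Cell markers differed between these carcinoma libraries too. In GFP+ EpCAM+ against GFP+ EpCAM-, the epithelial markers summed to 6801 against 3520 CPM, the macrophage markers to 31.4 against 7.69, the leukocyte markers to 4.03 against 1.92 and the endothelial markers to 36.7 against 77.9. Ptprc was at 0 counts in both. Their part in the shift was not tested.

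Against GFP- EpCAM+ cells the members of GFP+ EpCAM+ were mixed. The whole interval lay above 1 for 14 of 35 (40%), against 17.2% of all genes. It lay below 1 for 3 (Isg15, Bst2 and Isg20), against 20.9%. Here too the members held more counts, with 30 of 35 at 100 or more against 5674 of 9241 genes. The largest ratios were Ifi44 at 2.35 (1.90 to 2.93), Mx2 at 2.26 (1.41 to 3.77) and Ifit2 at 1.87 (1.23 to 2.91). Bst2 was the lowest, at 0.618 (0.568 to 0.671). The members' median log2 ratio was 0.16, where that of all genes was 0.01, and total-count scaling moved these medians to 0.29 and 0.14. Markers of other cells were lower in GFP+ EpCAM+ than in GFP- EpCAM+ here: all 6 macrophage markers passing the filter (sums of 31.4 and 205 CPM), 3 of 5 endothelial markers (36.7 and 192 CPM), 3 of 5 fibroblast markers (37.5 and 132 CPM) and the 1 leukocyte marker passing (4.03 and 28.8 CPM for the list). Of the 8 epithelial markers 2 were lower (6801 and 10826 CPM), and the part of these cells was not tested.

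The interferon genes themselves were hardly seen. Of 11 interferon genes looked up, all had 0 counts in the 3 libraries of the first table. The second table lists Ifnb1 alone of these, with 9 counts in GFP- EpCAM+, a single count in each GFP+ library and 0 in GFP- EpCAM-. T and natural killer cell markers, cells that make interferon gamma, summed to 155 CPM in GFP- EpCAM- (Gzmb 157 counts, Cd3e 23 counts), 6.12 in GFP- EpCAM+, 0.481 in GFP+ EpCAM- and 0 in GFP+ EpCAM+. In the first table they summed to 34.9 CPM in pCAF, where Cd3e had 9 counts, 0.812 in NMF and 0 in sCAF.

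Of 6 receptor genes, 5 or 6 passed the filter in each comparison, and 1 was called: Ifngr1, the ligand-binding chain for interferon gamma, stood at 0.329 of NMF in sCAF (0.258 to 0.418), 1 of 5 passing where 17.3% of all genes were lower. Of the signalling kinases, Jak2, a kinase of the interferon gamma receptor, was 8.84-fold higher in sCAF than in NMF (6.48 to 12.4) and in pCAF was at 0.198 of sCAF (0.126 to 0.297). Jak1, shared by both receptor types, was at 0.268 of the stroma in GFP+ EpCAM- (0.219 to 0.326).

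Among upstream sensing and feedback genes, Tmem173 and Socs3 were higher in pCAF than in both other libraries of its table. Tmem173 (STING, the adaptor for cytosolic DNA) had 61 counts in NMF, 104 in pCAF and 179 in sCAF, and pCAF was 5.24-fold above NMF (3.78 to 7.30) and 3.84-fold above sCAF (2.99 to 4.92). Tmem173 was lower than the stroma in GFP- EpCAM+, at 0.345 (0.287 to 0.413), and in GFP+ EpCAM-, at 0.307 (0.257 to 0.365). Of the 9 sensing genes, Ticam1 was also higher in pCAF than in sCAF (5.20-fold), and against NMF sCAF had higher Mb21d1 (4.33-fold) and lower Tlr4 (0.0516, from 18 to 2 counts). Socs3, a feedback inhibitor also induced by other cytokines, was 3.15-fold above NMF in pCAF (2.58 to 3.84) and 2.52-fold above sCAF, and in GFP- EpCAM+ it was at 0.282 of the stroma (0.255 to 0.312). Of the other 6 feedback genes, Ptpn6 (47.6-fold, 13.0 to 395) and Ptpn2 (4.13-fold) were higher and Trim30a (0.0202, from 23 to 1 counts) lower in sCAF than in NMF. Ptpn6 had 0 counts in pCAF and was no less than 10.3-fold lower there than in sCAF.

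Among targets typical of interferon gamma, Cxcl10 was higher than NMF in both tumour libraries. Cxcl10, a chemokine for activated T cells, had 14 counts in NMF, 75 in pCAF and 516 in sCAF, or 11.4, 187 and 194 CPM. The ratio to NMF was 16.5 in pCAF (9.22 to 31.5) and 17.1 in sCAF (10.1 to 31.5). Of 11 such targets, 9 passed the filter for sCAF over NMF, where Cxcl10, Igtp, Ifi47 and Irf8 were higher and Gbp5 was lower, and 7 passed for pCAF over NMF, where Cxcl10 alone was called. Of all genes 15.9% were higher and 17.3% lower in sCAF over NMF, and 7.58% were higher in pCAF over NMF. The second table gave Cxcl10 at 869, 857, 347 and 674 CPM in GFP- EpCAM-, GFP- EpCAM+, GFP+ EpCAM- and GFP+ EpCAM+. GFP+ EpCAM- was lowest, at 0.399 of the stroma (0.363 to 0.439). Cxcl9 was lower than the stroma in both GFP- EpCAM+, at 0.175 (0.130 to 0.231), and GFP+ EpCAM-, at 0.151 (0.114 to 0.197), and Gbp5 was lower in GFP- EpCAM+ (0.315).

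A list of 30 further interferon-induced genes was also counted. Against NMF, 0 of 26 passing were higher and 4 lower in pCAF (Samhd1, Uba7, Znfx1 and Ifi27l2a), and 0 of 27 were higher and 6 lower in sCAF. The shares over all genes were 7.58% higher and 7.91% lower in pCAF, and 15.9% and 17.3% in sCAF. Among those lower in sCAF were Ly6e (0.392), Ifitm2 (0.244) and Ifi27l2a (0.0208, from 1203 to 54 counts). Compared directly, pCAF was higher than sCAF in 5 of 24, with Ly6e at 3.04-fold, Ifitm2 at 4.36-fold, Ifi27l2a at 16.9-fold and Slfn5 at 21.2-fold, and lower in Trafd1 (0.261), where 11.5% of all genes were higher and 11.2% lower. Relative to the stroma of the second table, Ifitm2 and Slfn5 were lower in GFP- EpCAM+ (2 of 25), and these and Ifi27l2a and Ly6e in GFP+ EpCAM- (4 of 25), with none higher, where 12.7% and 14.1% of all genes were lower. Ifi27l2a was the 1 of 24 called higher in GFP+ EpCAM+ over GFP+ EpCAM-, at 2.94-fold (2.43 to 3.59), where 0.736% of all genes were, and 0 of 24 were called in GFP+ EpCAM+ over GFP- EpCAM+.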

How the data were processed

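Both count tables were used as deposited. The authors' values are raw counts, whole numbers with 1 row for a gene name, and were not normalized. The submitters' processing notes name bcl2fastq, cutadapt, STAR, HTSeq and DESeq2 with mm10, without versions or roles. Per the labels, a molecular identifier was read in every library, but no source used here says whether it was collapsed, so intervals and floors cover counting error only. Names turned into dates (27 and 21 names, at most 0.198% of a library's counts) were left out. Within a table, ratios were scaled with TMM from edgeR 4.0.16 in R 4.3.3 and given the exact 95% Clopper-Pearson interval of a conditional binomial, from scipy 1.17.1 under Python 3.11.15. Where 1 library had 0 counts, 3 were put in its place and the ratio is a bound, and with 3 counts or fewer in both no ratio was taken. The method was tested on simulated data. The members and the 7 pathway and 7 marker lists were chosen with earlier results of these data known. Members are described by role. Values in every library of a table, with the ratio, are given for a member called in a comparison (at most 10) and for the 3 with the largest summed counts of that table. At most 4 called genes are named from a pathway list, by summed count. Genes named for the size of a ratio in the comparisons without a call were chosen after their values were seen. The alternatives were a DESeq2 1.42.0 scaling, scaling by totals, no ribosomal protein genes, a minimum of 100 counts, no minimum, a 4-fold rule and thinning to 436051 or 1338608 counts. Scaling factors computed without sCAF were added later, with the data in view. Each group is 1 library, so no p-value is given. A gene of the pathway lists is not reported here.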

Additional observations from a re-analysis of the deposited data

How the results depend on the processing

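Of the counts of members called, 77 of 100 under the alternatives stayed within 1.5 times the reported count and 23 did not. Of the single-gene ratios, 291 stayed within their counting interval, and 16 did not. Changing the count minimum or using the 4-fold rule cannot alter a ratio. Ratios under those settings stayed by construction, and only the other scalings and thinning could move one. No ratio of a called member changed direction. Of the 307 ratios 1 crossed 1, that of Ifi27 in pCAF over sCAF, which was not called: 0.854 became 1.15 with thinned libraries. With DESeq2 size factors, members higher in sCAF over NMF went from 5 to 2 (Irf1, Oasl1 and Mx1 lost), and for pCAF over sCAF higher members went from 0 to 2 (Oasl2 and Ifitm3) and lower ones from 4 to 1 (Parp14). Total-count scaling gave 2 members higher in sCAF over NMF and 1 (Ifi44) in GFP+ EpCAM+ over GFP- EpCAM+. At 100 counts or more, 1 member was lower in pCAF over NMF, 2 higher and 1 lower in sCAF over NMF, and 1 lower in GFP- EpCAM+ over GFP- EpCAM-, since fewer genes were tested. With no filter, 2 members were higher in pCAF over sCAF (Ifit1 and Gbp7) and 1 lower (Ifitm1) in GFP+ EpCAM+ over GFP- EpCAM+. The 4-fold rule left 0 lower in pCAF over NMF, 1 higher and 2 lower in sCAF over NMF, 0 lower in pCAF over sCAF, 0 higher and 1 lower in GFP- EpCAM+ over GFP- EpCAM-, and 0 higher and 1 lower in GFP+ EpCAM- over GFP- EpCAM-. Thinning left 1 higher (Isg20) and 1 lower (Ifitm1) in sCAF over NMF, and 4 higher and 1 lower in pCAF over sCAF. The cause of the changes with another scaling was not tested. Factors without sCAF kept both calls of pCAF over NMF. No paired analysis was possible because each group is 1 library. Depth was lowest in pCAF, at 436051 counts.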

Other observations

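Among the 38 members, the highest level of the first table lay in NMF for 16, in sCAF for 13 and in pCAF for 9. In the second table it lay in GFP+ EpCAM+ for 17, in GFP- EpCAM- for 12, in GFP- EpCAM+ for 7 and in GFP+ EpCAM- for 2 (Gbp7 and Xaf1). Those highest in GFP- EpCAM- included Irf7, Isg15, Oasl1, Mx2, Ifitm1, Ifitm3, Rsad2 and Trim25.

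For GFP+ EpCAM+ over GFP+ EpCAM-, the median log2 ratio was above 0 in each of the 8 role groups. It was 0.66 for the ISG15 system, 0.51 for the Ifit and RNA-binding effectors, 0.51 for the oligoadenylate synthetases, 0.42 for the other effectors and 0.41 for the GTPases. It was 0.36 for the transcription factors, 0.22 for the sensors and 0.14 for the membrane proteins. The median of the whole set was 0.41, and no test sets these groups apart.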
